A study of Danio rerio with 8 samples.

Results

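The cytochrome P450 family 1 genes were followed in the distal trunk of larval zebrafish kept in medium with benzo[k]fluoranthene (BkF), which is one of the polycyclic aromatic hydrocarbons, or with the solvent DMSO. The set holds 4 of the 24345 Ensembl gene identifiers in the data: ENSDARG00000026039, an identifier of an older genome build that was taken as cyp1a, ENSDARG00000068934 (cyp1b1), ENSDARG00000018298, which carries no symbol, and ENSDARG00000035569 (cyp1d1). The identifiers were chosen by family name and, for ENSDARG00000018298, by measured values, namely a ratio of BkF to control like that of cyp1a and cyp1b1. The contrast of BkF with control is therefore given for these 4 as a description, without a test. A table of current identifiers and symbols names cyp1b1 (as CYP1B1) and cyp1d1. It names neither ENSDARG00000026039 nor ENSDARG00000018298, so no role is given to ENSDARG00000018298.

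Treated animals were Tropical 5D wild-type larvae in 12 µM BkF, sampled at 48, 60, 72 and 96 hours post fertilization (hpf). Control animals of the same line were in 1% DMSO and sampled at the same 4 times. The DMSO content of the BkF medium is not given in the sample labels. Exposure was static and began at 6 to 8 hpf, after the chorion had been removed at 4 hpf, and the trunk was cut so as to hold the region of an extra, ectopic fin. Each of the 8 samples is the authors' mean of DESeq2-normalized counts over 4 biological replicates of 50 animals, 32 libraries in all, so no replicate error can be given and the spread quoted below is the SD over the 4 time points.

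Family 1 cytochromes P450 are heme-containing monooxygenases of the endoplasmic reticulum that oxidize planar aromatic hydrocarbons, estrogens and other small molecules. The aryl hydrocarbon receptor (AHR) binds such hydrocarbons, enters the nucleus, pairs with its partner ARNT and switches on family 1 genes, and the transcript of cyp1a is widely used in fish as a sign of exposure. Cyp1d1 belongs to the family by sequence and is known from zebrafish as a member that AHR agonists do not readily induce.

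The genes fell into 3 with very large increases under BkF and 1 with almost none. ENSDARG00000026039 (cyp1a) stood at 701234, 740997, 758968 and 700404 normalized counts in BkF larvae at 48, 60, 72 and 96 hpf, against 342, 625, 619.9 and 582 in control larvae. The BkF samples lay within a narrow band, and the lowest of them was 1121-fold above the highest control. The ratio of BkF to control was 2051-, 1186-, 1224- and 1203-fold at the successive times, a mean log2 ratio of 10.42 ± 0.38 (SD over 4 time points, log2 of the value + 1).

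Cyp1b1, whose product oxidizes estradiol and retinoids as well as hydrocarbons, stood at 55154, 51648, 48368 and 48448 normalized counts in BkF larvae and at 75.3, 55.0, 80.7 and 102 in control larvae. Its BkF values were highest at 48 hpf and its control values highest at 96 hpf, and the groups were 476-fold apart at their nearest. The ratio was 733-, 939-, 599- and 477-fold, with a mean log2 ratio of 9.36 ± 0.41. The lowest ratio, at 96 hpf, coincided with the highest control value.

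ENSDARG00000018298 stood at 35887, 44206, 38203 and 47767 normalized counts in BkF larvae, against 36.7, 76.6, 84.8 and 54.7 in control larvae. The groups were 423-fold apart at their nearest, and the lowest BkF and lowest control values were both at 48 hpf. The ratio was 978-, 577-, 450.3- and 874-fold, a mean log2 ratio of 9.40 ± 0.51.

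Cyp1d1 stood at 878, 1080.5, 1015 and 929 normalized counts in BkF larvae, against 876, 1147, 1172 and 1173 in control larvae. The groups overlapped, and at 48 hpf they were almost equal. The ratio was 1.00 at 48 hpf, 0.942 at 60 hpf, 0.866 at 72 hpf and 0.792 at 96 hpf, a mean log2 ratio of -0.16 ± 0.15. Its sign rests on the scaling of the samples: normalized counts summed to 12.1% less in BkF samples than in controls, and when all samples were brought to an equal total the log2 ratio of cyp1d1 was 0.19, 0.11, -0.0044 and -0.17 at the successive times and 0.029 on average.

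**Figure D1:**
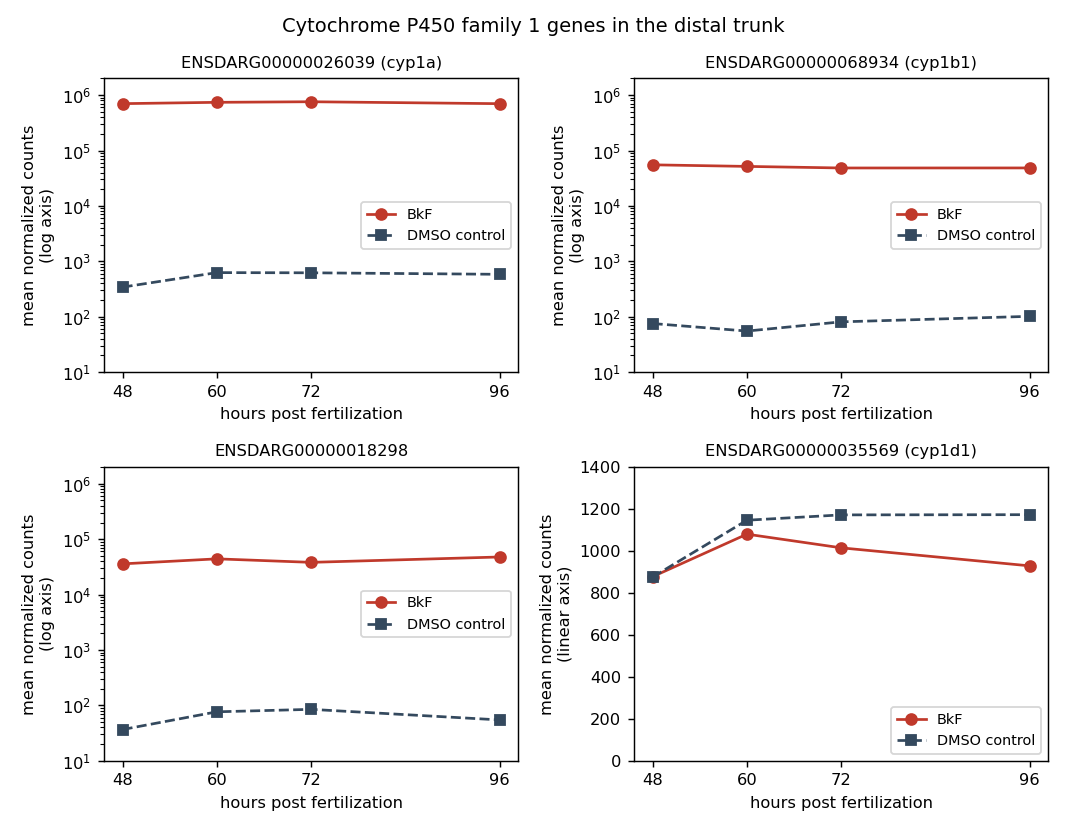
Mean normalized counts (y axis) of the 4 genes at 48, 60, 72 and 96 hpf (x axis) in BkF (red circles) and DMSO control (dark squares) samples, 1 deposited value per point. The axis is logarithmic for 3 genes and linear from 0 for cyp1d1. BkF samples of ENSDARG00000026039 stay between 700404 and 758968 while controls stay between 342 and 625, and the cyp1d1 lines overlap between 876 and 1173.

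For background, 3.64, 4.2, 4.88 and 5.29% of the 21950 genes with a mean of 10 or more were at least 2-fold higher in BkF at 48, 60, 72 and 96 hpf, and in 14.6% every BkF sample lay above every control sample. The 3 induced genes passed both marks, which nothing is read from, since this contrast chose them. By the mean log2 ratio they ranked 1 (ENSDARG00000026039), 2 (ENSDARG00000018298) and 3 (cyp1b1) among the tested genes, and the gene at rank 4 stood at 6.67. Cyp1d1 ranked 14465. At 96 hpf MRPS22, a gene for a mitochondrial ribosomal protein, had a higher log2 ratio (10.25) than ENSDARG00000026039 (10.23), but it was listed at 0 in the control sample of that time.

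The induced genes also made up a large share of the transcripts counted. ENSDARG00000026039 alone took 0.892, 0.945, 0.993 and 0.894% of all normalized counts in BkF samples at the successive times, against 0.000383, 0.000698, 0.000704 and 0.000664% in controls. All 59 identifiers with a P450 name or in the set together summed to 832421, 882484, 893251 and 845447 in BkF samples and to 44502, 49937, 51643 and 49935 in controls. Identifiers without a symbol, other than those of the set, are not in this sum. Of the sum the 4 genes of the set were 95.3, 95.0, 94.8 and 94.3% in BkF and 2.99, 3.81, 3.79 and 3.83% in controls. ENSDARG00000018298, which has no symbol, made up 4.31, 5.01, 4.28 and 5.65% of the sum in BkF and 0.0824, 0.153, 0.164 and 0.110% in controls. In controls cyp1d1 was the largest of the 4 shares, at 1.97 to 2.35% of the P450 sum, whereas in BkF it was 0.105 to 0.122%. The remaining P450 genes summed to 39269 to 47898 in BkF and to 43172 to 49685 in controls, ranges that overlap. These are shares of counts that were not divided by transcript length.

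Over time, ENSDARG00000026039 and cyp1b1 held a nearly level plateau in BkF, while ENSDARG00000018298 varied about as much as the median gene. The highest BkF value exceeded the lowest 1.08-fold for ENSDARG00000026039, 1.14-fold for cyp1b1 and 1.33-fold for ENSDARG00000018298. In controls the same quotient was 1.83, 1.84 and 2.31. The SD of the log2 value over the 4 times was 0.06, 0.09 and 0.19 in BkF and 0.42, 0.36 and 0.54 in controls for the 3 genes in that order, so the ratio varied with time mainly through its control side. The median gene had a log2 range over time of 0.40 in BkF and 0.40 in controls. This median covers genes of all levels and is not matched to the low control values of the 3 genes. How much of their control spread comes from low counts was not tested. For ENSDARG00000026039 the range was 0.12 in BkF and 0.87 in controls. For cyp1b1 it was 0.19 and 0.87, and for ENSDARG00000018298 0.41 and 1.19. With 1 averaged value per time, neighbouring times within a treatment cannot be told apart from replicate error.

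Between 48 and 60 hpf the log2 value changed in controls by 0.87 for ENSDARG00000026039, by 1.04 for ENSDARG00000018298 and by 0.39 for cyp1d1, whereas cyp1b1 had -0.45. In BkF the same step was 0.08, 0.30, 0.30 and -0.09 for these genes in that order. In 3 of the 4 genes, all but cyp1b1, 48 hpf was the lowest control sample, which held for 37.3% of all tested genes. Cyp1d1 then stayed level in controls, with steps of 0.03 and 0.00, while in BkF it had -0.09 and -0.13.

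**Figure D2:**
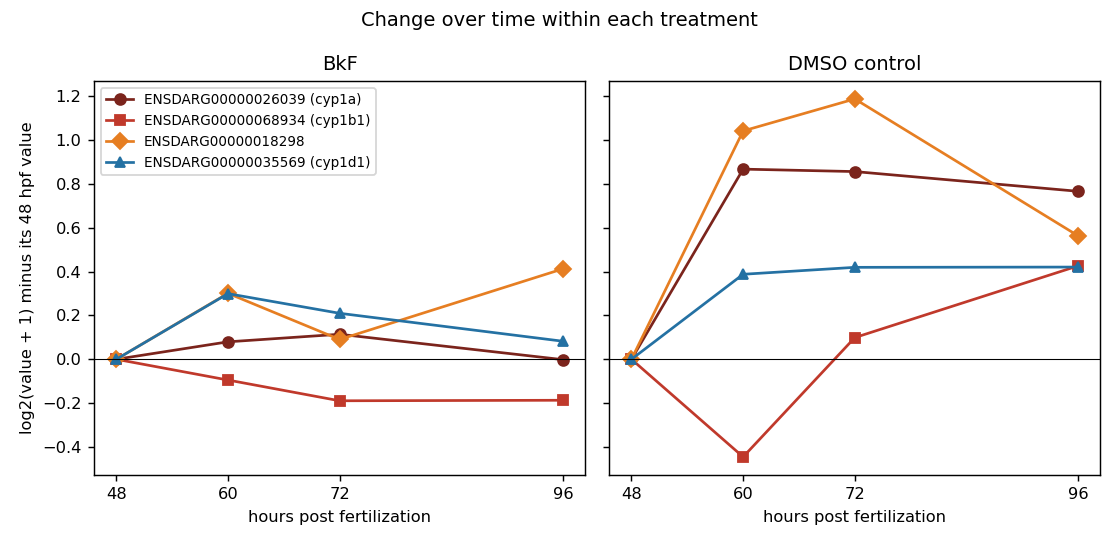
Change of log2(value + 1) from 48 hpf (y axis) over hours post fertilization (x axis) for the 4 genes, in BkF (left) and DMSO control (right) samples, 1 value per point. In BkF, ENSDARG00000026039 stays within a log2 range of 0.12, while in controls it lies 0.87 above its start by 60 hpf, and cyp1b1 is the gene whose control value is lower at 60 than at 48 hpf.

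A straight line with time within each treatment was the test that the choice of the genes did not use (limma on all 21950 genes, slopes per 24 h, Benjamini-Hochberg adjusted). Both treatments shared 1 estimate of the spread about the lines, so each gene has the same SE in BkF and in controls. For ENSDARG00000026039 the SE of the BkF slope thus also holds the control spread (SD over time 0.42, against 0.06 in BkF). In BkF the slopes were -0.0080 ± 0.16 for ENSDARG00000026039, -0.09 ± 0.12 for cyp1b1, 0.17 ± 0.24 for ENSDARG00000018298 and 0.0030 ± 0.10 for cyp1d1 (estimate ± SE on the log2 scale), and 0 of 4 passed (limma adjusted p from 0.682 to 0.989). The background was 2.1% of genes with a rising and 3.72% with a falling slope in BkF. In controls the slopes were 0.29 ± 0.16, 0.30 ± 0.12, 0.18 ± 0.24 and 0.17 ± 0.10 for the genes in the same order, and 0 of 4 passed (limma adjusted p from 0.364 to 0.718). In controls 0% of genes passed in either direction with limma, with 2992 at an unadjusted p under 0.05. Without the 96 hpf samples 4018 genes passed in controls, among them ENSDARG00000018298 with a slope of 1.19 (limma adjusted p = 0.0351). In BkF 1278 genes passed with all times, 649 without the 48 hpf samples, 595 without the 72 hpf samples and 0 without the 60 hpf samples.

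ENSDARG00000026039 outweighed the other induced genes more in BkF than in controls at each of the 4 times. This follows from its larger ratios of BkF to control, given above, and is no further observation. ENSDARG00000026039 had 12.7, 14.3, 15.7 and 14.5 times the normalized count of cyp1b1 in BkF at the successive times, against 4.54, 11.4, 7.68 and 5.74 times in controls. It had 19.5, 16.8, 19.9 and 14.7 times that of ENSDARG00000018298 in BkF, against 9.32, 8.16, 7.31 and 10.6 times in controls. Since counts also scale with transcript length, these quotients compare samples and not levels between genes.

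Across the 8 samples the log2 values of the induced genes were split alike into high BkF and low control samples, with Pearson r of 0.999 between ENSDARG00000026039 and ENSDARG00000018298, 0.997 between ENSDARG00000026039 and cyp1b1, and 0.995 between cyp1b1 and ENSDARG00000018298. Cyp1d1 had r of -0.42, -0.46 and -0.41 with ENSDARG00000026039, cyp1b1 and ENSDARG00000018298. These r values describe 8 samples that form 4 BkF and 4 control values, so any gene with a large and steady ratio reaches a high one whatever its course over time, and 40, 42 and 32 other genes had r of 0.99 or more with ENSDARG00000026039, cyp1b1 and ENSDARG00000018298.

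Outside the set, the 5 profiles most like that of ENSDARG00000026039 were ENSDARG00000087467, which has no symbol (r = 0.998), tiparp (0.998), PKHD1L1 (0.997), fgf7 (0.997) and si:ch73-334d15.2 (0.997). Those most like cyp1b1 were tiparp (0.998), fgf7 (0.997), the homeobox gene DLX3 (0.997), the cytokine signalling inhibitor gene SOCS3 (0.997) and ugt1b1 (0.996). For ENSDARG00000018298 they were ENSDARG00000087467 (0.998), tiparp (0.997), si:ch73-334d15.2 (0.997), PKHD1L1 (0.996) and ENSDARG00000034894 (0.996). Tiparp was among the 5 of each induced gene, although its ratio, a log2 of 2.59 ± 0.05, was far smaller than theirs. The profile most like that of cyp1d1 was MYBPC3, a myosin-binding protein gene (0.991), followed by ENSDARG00000040391, ENSDARG00000075712 and ENSDARG00000079092 (0.980 each) and by ISM1, a gene for a secreted protein (0.979).

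Other genes that the receptor is known or held to induce were tested with limma over the 4 time points, with time as a block. This list was put together with results of these data known, and ugt1b1 and sult6b1 were on it for that reason, so its count is a description and no independent evidence of a direction. All 9 measured members with a mean of 10 or more rose and 0 fell, beside 16.5% of all tested genes that rose and 17.4% that fell, and their median log2 ratio was 2.51, against -0.0052 over all tested genes. Without ugt1b1 and sult6b1, 7 of 7 rose and the median was 1.48. These 7 were also listed with results of these data known, so this count too is only a description. With totals made equal, all 9 again rose, while over all genes 36.2% rose and 9.79% fell. Of the other symbols on the list, ahrra, cyp1c1, cyp1c2, gstp1 and gstp2 were not matched to an identifier.

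Ahrrb, which encodes a repressor that competes with AHR, stood at 314, 449.9, 496 and 637 normalized counts in BkF and at 11.2, 5.75, 13.4 and 7.56 in controls, a log2 ratio of 5.52 ± 0.74 (limma adjusted p = 0.000245). Tiparp, whose product ADP-ribosylates AHR and dampens its action, stood at 15854, 15763, 15120 and 16002 in BkF and at 2615, 2682, 2596 and 2542 in controls (limma adjusted p = 7.19e-06). Of the conjugating enzymes, the glucuronosyltransferase gene ugt1b1 had a log2 ratio of 4.44 ± 0.16 and the sulfotransferase gene sult6b1 2.51 ± 0.09. Among forkhead factor genes FOXQ1 had 3.13 ± 0.37, foxf2a 1.48 ± 0.18 and foxq1b 0.95 ± 0.29. SLC16A9, a monocarboxylate transporter family gene, had 0.60 ± 0.32, and NQO1, a quinone reductase gene, 0.24 ± 0.12. The calls of SLC16A9 and NQO1 were lost without the 60 hpf samples (0.59 and 0.23) and without the 72 hpf samples (0.57 and 0.20). SLC16A9 was also lost without the 96 hpf samples (0.49) and NQO1 without the 48 hpf samples (0.22).

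**Figure D3:**
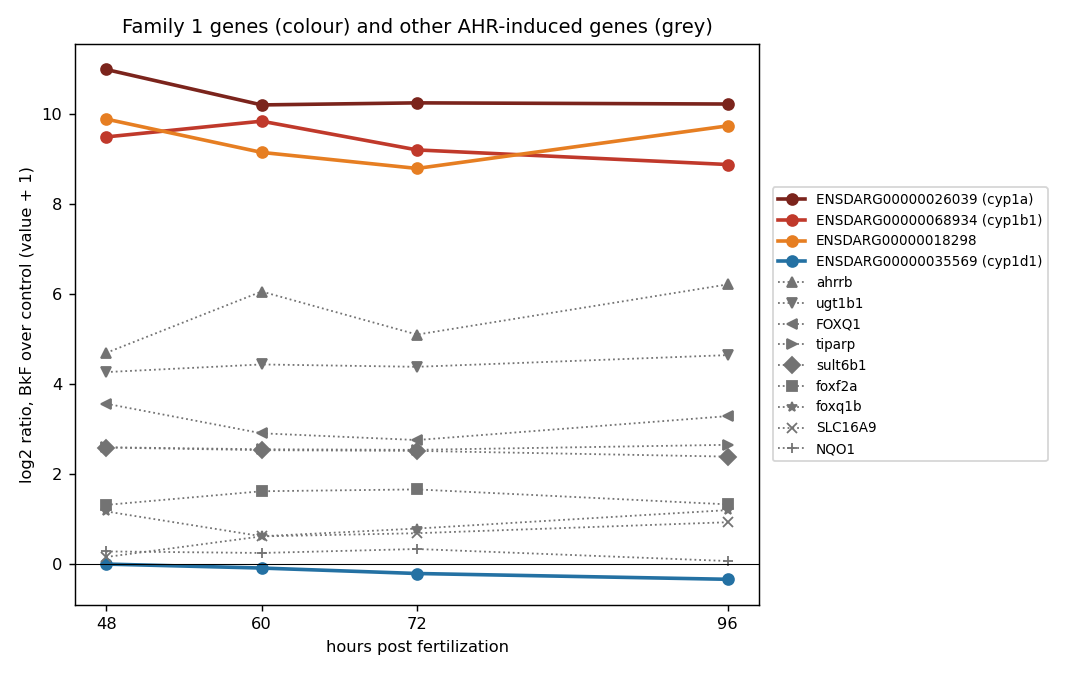
Log2 ratio of BkF to control, computed on value + 1 (y axis), over hours post fertilization (x axis), 1 ratio per time. Coloured lines are the 4 genes of the set and grey dotted lines 9 other AHR-induced genes. The 3 induced genes of the set lie at 8.80 or above. Ahrrb and ugt1b1 come next with means of 5.52 and 4.44, and cyp1d1 lies between -0.34 and 0.00.

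Of the receptors and their partners, 4 of 5 tested identifiers rose and 0 fell, beside 16.5% and 17.4% of all tested genes, with a median log2 ratio of 0.50. With totals made equal 4 rose and 0 fell, beside 36.2% and 9.79% of all genes. Ahr2, the receptor that mediates most responses to AHR ligands in zebrafish embryos, stood at 22944, 25144, 26792 and 27849 in BkF and at 13506, 14083, 14416 and 14499 in controls, a log2 ratio of 0.86 ± 0.08 (limma adjusted p = 0.000346). Ahr1b, another receptor paralog, had 0.55 ± 0.35, a call that was lost on leaving out any of the 4 time points (0.44 to 0.69). The 2 identifiers of PTGES3, a cochaperone of the unliganded receptor, had 0.31 ± 0.06 (ENSDARG00000037284) and 0.50 ± 0.23 (ENSDARG00000089626). Arnt, the dimer partner, had -0.07 ± 0.06 and did not pass. The partner genes arnt2 and aip were not matched to an identifier. The receptor gene ahr1a was below the mean of 10 and not tested. It was lower in BkF at each time, at 0.93 to 7.21, against 6.43 to 14.4 in controls (log2 ratio -1.50 ± 1.09).

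None of the other identifiers with a P450 symbol had a ratio near that of the induced genes. Identifiers without a symbol could not be sorted into this group or out of it, and cyp1c1 and cyp1c2 were not matched. Of 55 further P450 identifiers, 40 had a mean of 10 or more, of which 4 rose and 18 fell, beside 16.5% and 17.4% of all tested genes, with a median log2 ratio of -0.48. With totals made equal, 9 rose and 11 fell, beside 36.2% and 9.79% of all genes. Without the 60 hpf samples 2 of 42 rose and 11 fell, while over all genes 1683 of 21953 rose and 1856 fell. Without the 72 hpf samples 2 of 41 rose and 12 fell, while over all genes 1835 of 21950 rose and 1965 fell. The highest mean log2 ratio among them was 1.85 ± 1.15, that of CYP7A1, which encodes the rate-limiting enzyme of bile acid synthesis and has a mean below 50. Its call was lost without the 60, 72 or 96 hpf samples (2.18, 1.79 and 1.33).

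Of the P450 genes that rose, CYP26B1, which encodes a retinoic acid hydroxylase, had 1.03 ± 0.25 (limma adjusted p = 0.00126) and stood at 4540 to 11589 in BkF and at 2510.3 to 4765 in controls. Cyp46a1.3, a paralog of the brain cholesterol hydroxylase gene, had 0.88 ± 0.30, and cyp3c1, of the family of major drug-oxidizing enzymes, had 0.27 ± 0.13. The call of cyp3c1 was lost without the 48, 60 or 72 hpf samples (0.23, 0.24 and 0.26). The other genes for retinoic acid hydroxylases did not pass. CYP26A1 stood at 536, 517, 335 and 145 in BkF and at 406, 227, 128 and 300.5 in controls, a log2 ratio of 0.48 that passed at 0.99 without the 96 hpf samples. CYP26C1 had 0.10 ± 0.46.

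Of the P450 genes that passed and averaged at least 50, those with the largest decreases were cyp27a2 (-1.25 ± 0.44, limma adjusted p = 0.00365), cyp27a3 (-1.04 ± 0.80, limma adjusted p = 0.0418) and cyp39a1 (-1.03 ± 0.39, limma adjusted p = 0.0119), all of families that hydroxylate sterols. Cyp27a3 lost its call without the 60, 72 or 96 hpf samples (-0.98, -0.70 and -1.13) and with totals made equal (-0.85), and cyp39a1 without the 60 hpf samples (-0.84). In family 27, singled out after its values were seen, 7 of 7 tested identifiers fell, as did 4 of 7 with totals made equal or without the 60 hpf samples. Of these, 3 carry the same symbol, CYP27A1, and whether reads were split between copies was not tested. In family 2, which holds many enzymes of drug metabolism, 6 of 13 fell and 0 rose. With totals made equal, cyp2v1 (-0.14), CYP2U1 (-0.32) and CYP2R1 (-0.52) lost their calls, and cyp2x7 passed as higher (0.65). Over all tested genes 17.4% fell and 16.5% rose, or 9.79% and 36.2% with totals made equal. Without the 60 hpf samples 1856 of 21953 genes fell and 1683 rose.

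**Figure D4:**
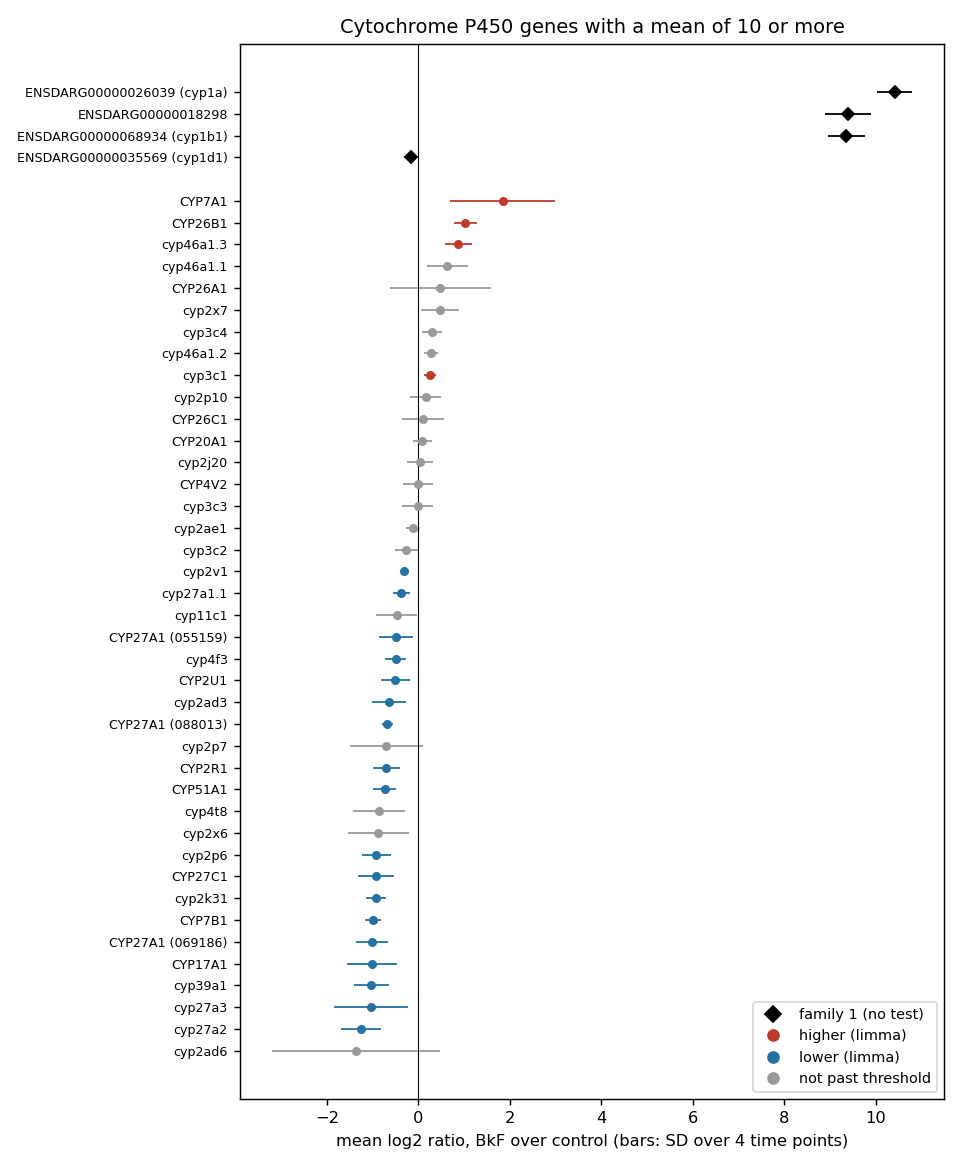
Mean log2 ratio of BkF to control (x axis, bars show the SD over 4 time points). The 4 genes of the set (black diamonds, no test) are above 40 other P450 genes (circles). Circles are red for higher, blue for lower and grey for not past the limma threshold. For a symbol carried by several identifiers the last 6 digits of the identifier are in brackets. The 3 induced genes lie between 9.36 and 10.42, and the highest other P450 gene, CYP7A1, lies at 1.85.

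P450 enzymes draw electrons from a reductase and hold heme, so genes for both were examined. Of 9 genes for electron donors 2 rose and 2 fell, shares near the 16.5% and 17.4% of all tested genes, with a median log2 ratio of 0.11. With totals made equal 6 rose and 0 fell, beside 36.2% and 9.79% of all genes. The cytochrome b5 genes cyb5a and cyb5b were not matched to an identifier. Of the 2 identifiers with the symbol POR, the P450 oxidoreductase gene, ENSDARG00000055092 fell by 0.34 ± 0.14 and ENSDARG00000059035 rose by 0.27 ± 0.15 on the log2 scale. Both calls were lost without the 60 hpf samples (-0.34 and 0.24), that of ENSDARG00000055092 also with totals made equal (-0.15) and that of ENSDARG00000059035 without the 48 hpf samples (0.23). CYB5R2, a cytochrome b5 reductase gene, had 0.51 ± 0.17, and CYB5R3, its paralog, -0.22 ± 0.13, a call lost without the 48, 60 or 96 hpf samples (-0.20, -0.17 and -0.22) or with totals made equal (-0.03).

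Of 14 identifiers for heme synthesis and breakdown 6 rose and 1 fell, beside 16.5% and 17.4% of all tested genes, with a median log2 ratio of 0.26. With totals made equal 11 rose and 1 fell, beside 36.2% and 9.79% of all genes. Without the 60 hpf samples 4 rose and 0 fell, while over all genes 1683 of 21953 rose and 1856 fell. Without the 72 hpf samples 3 rose and 1 fell, while over all genes 1835 of 21950 rose and 1965 fell. ALAS1, which encodes the first and rate-limiting enzyme of heme synthesis in most tissues, stood at 6984, 7000, 6406 and 9653 in BkF and at 3291, 4013, 3520 and 3357 in controls, with groups that did not overlap and a log2 ratio of 1.07 ± 0.33 (limma adjusted p = 0.00226). Alas2, the erythroid form, had 0.83 ± 0.48, a call lost without the 72 hpf samples (0.69). HMOX1, which encodes the heme oxygenase that breaks heme down, stood at 605, 918, 1142 and 1878 in BkF, against 296, 407, 434 and 456 in controls, a log2 ratio of 1.41 ± 0.45 (limma adjusted p = 0.00263). The gene that fell, ENSDARG00000059805 (SLC25A38, a mitochondrial glycine carrier), was low, at 4.10 to 14.2 in BkF and 16.2 to 38.4 in controls, a log2 ratio of -1.69 whose call was lost without the 48, 60 or 96 hpf samples (-1.66, -1.35 and -1.56). The other identifier with this symbol, ENSDARG00000074533, was more abundant and rose, with 0.34 ± 0.13 (limma adjusted p = 0.0137), a call lost without the 60 or 72 hpf samples (0.32 and 0.31). Those later steps of synthesis that were matched did not pass, with log2 ratios of 0.31 for UROD, 0.24 for CPOX and -0.26 for FECH. The synthesis genes alad and ppox and the breakdown gene hmox2a were not matched to an identifier. With totals made equal, UROD (0.49) and CPOX (0.42) passed, and UROD also passed without the 48 hpf samples (0.42).

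**Figure D5:**
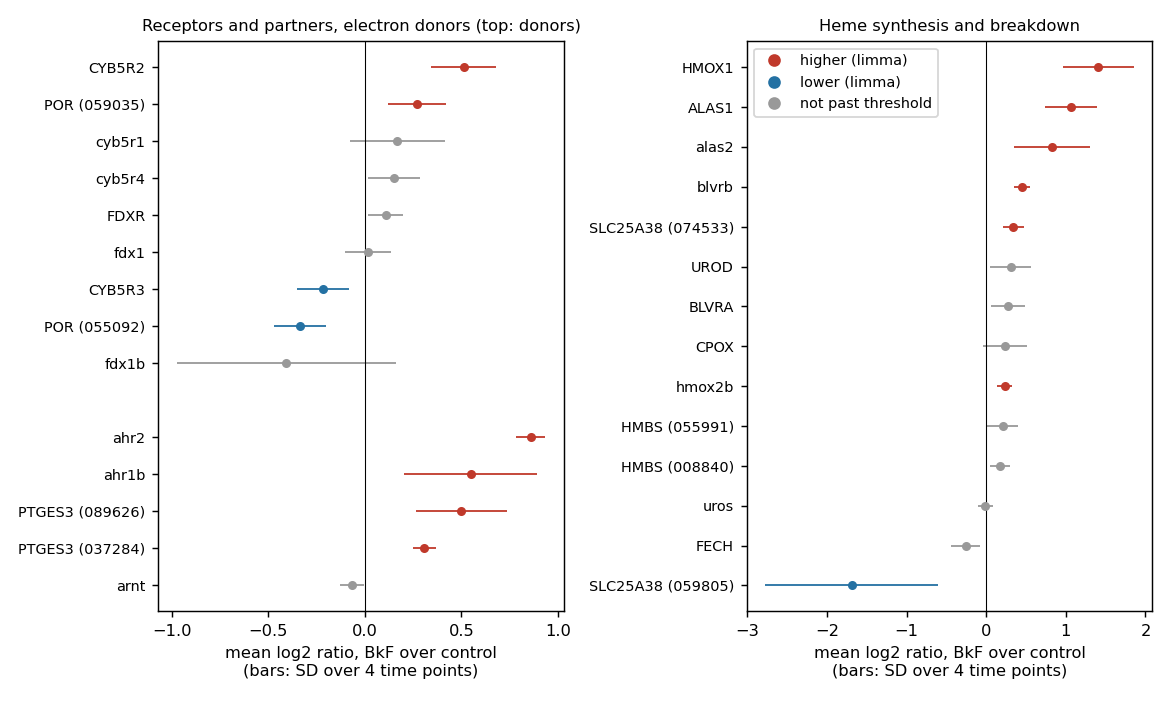
Mean log2 ratio of BkF to control (x axis, bars show the SD over 4 time points) of genes for electron donors (left, upper block), AHR receptors and partners (left, lower block) and heme synthesis and breakdown (right). Red circles are higher, blue circles lower and grey circles not past the limma threshold. HMOX1 (1.41), ALAS1 (1.07), ahr2 (0.86) and alas2 (0.83) lie farthest to the right, and ENSDARG00000059805 (SLC25A38, -1.69) lies farthest to the left.

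Genes for enzymes that conjugate the products of P450 oxidation were the last list. Of 22 tested genes 6 rose and 6 fell, beside 16.5% and 17.4% of all tested genes, with a median log2 ratio of -0.04. Without ugt1b1 and sult6b1, 4 of 20 rose. With totals made equal 9 of 22 rose and 6 fell, beside 36.2% and 9.79% of all genes. Beside ugt1b1 and sult6b1, given above, the glucuronosyltransferase gene UGT1A1 rose, with 2.44 ± 0.47 (limma adjusted p = 0.000548). Among those that fell were sult1st4, a sulfotransferase gene (-2.77 ± 1.29, limma adjusted p = 0.00788), and the glutathione transferase gene gstt1b (-0.62 ± 0.07, limma adjusted p = 0.00084).

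Markers of tissues in the trunk and outside it were summed as a check of the labelled tissue. The counts of markers that rose or fell stand beside 16.5% of all tested genes that rose and 17.4% that fell. With totals made equal these shares were 36.2% and 9.79%, a step that the marker calls below do not include. Muscle markers summed to 338493, 468137, 312300 and 161340 in BkF at the successive times, against 229698, 306241, 207609 and 212823 in controls. The muscle sum was thus higher in BkF at 48, 60 and 72 hpf and lower at 96 hpf. Over the 4 times 3 of 11 muscle markers rose, and of these myhz2 had a log2 ratio of -0.12 at 96 hpf, pvalb1 0.74 and pvalb2 0.30. Epidermal markers summed to 1101661 to 2587166 in BkF and 5992516 to 7209812 in controls, and 10 of 11 fell. Notochord markers summed to 212703, 262864, 178157 and 91635 in BkF at the successive times, against 258692, 310022, 251355 and 275428 in controls, and 4 of 12 fell. Vascular markers summed to 9356 to 12001 in BkF and 7994 to 10388 in controls, and 4 of 8 rose. Markers of heart (45.8 to 66.5 in BkF, 61.8 to 98.5 in controls) and eye (59.9 to 71.1 in BkF, 65.1 to 101 in controls) were low. Of the liver markers, fabp10a stood at 3.5 to 7.8 in BkF and 8.7 to 15.2 in controls. Among the 9 tested liver markers 2 rose and 0 fell. The liver markers as a whole summed to 2667, 1116, 269.6 and 163 in BkF at the successive times, against 302 to 526 in controls. Within this BkF sum apoa2 stood at 1100 at 48 hpf, and tfa at 605 at 48 hpf and 970 at 60 hpf. Most other liver markers were also higher in BkF than in the control at 48 hpf. APOB stood at 212 against 15.5, f2 at 207 against 34.6 and serpina1l at 187 against 45.2. CP, fga, FGB, FGG and ambp were higher as well, whereas fabp10a and cyp2ad2 were lower. The intestine markers summed to 8338 in BkF at 48 hpf, against 3663 to 7043 in the other samples. Intestine markers went both ways at 48 hpf. Apoa1a stood at 3097 in BkF and 25.9 in the control, whereas ANPEP (ENSDARG00000036809) had 4578 against 5567 and VIL1 10.8 against 25.3. Exocrine pancreas markers summed to 1305 to 1847 in BkF and 3117 to 3937 in controls, and 3 of 5 tested fell. Most of that sum was CPB1, at 1027 to 1460 in BkF and 2576 to 3634 in controls. The pancreas markers prss1 and CPA1 had log2 ratios of 0.41 and 0.30 and did not pass. Brain markers summed to 1901 to 2326 in BkF and 3295 to 3642 in controls, and 3 of 4 tested fell. Most of the brain sum was emx3, at 1497 to 1837 in BkF and 2647 to 2933 in controls. The part of these tissues in the result was not tested. In such bulk samples, fewer cells of a type and less RNA per cell cannot be told apart. Without the 48 hpf samples the mean log2 ratios of ENSDARG00000026039, cyp1b1, ENSDARG00000018298 and cyp1d1 were 10.23, 9.31, 9.23 and -0.21. Without the 96 hpf samples they were 10.49, 9.52, 9.28 and -0.10.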

How the data were processed

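RNA sequencing of distal trunk tissue gave 32 stranded single-end libraries (100 bp), which the authors averaged into 8 conditions. Each deposited value is a signal, the mean of normalized counts that the authors computed. Per the submitters' processing notes the tools included FastQC, Trimmomatic, Salmon and DESeq2, with build Zv9. Versions of these are not given in the sources used here. Values are not whole reads, and totals ran from 76456319 to 78634021 in BkF and from 87750209 to 89533865 in controls. The depth in reads is unknown, so counting intervals are left out. The 8 files of single samples equal the columns of the series table. Coordinates and sequences were not used here.

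The 21950 genes averaging at least 10 across samples were tested on log2(value + 1) with limma 3.58.1 in R 4.3.3, with an intensity trend, two-sided tests and Benjamini-Hochberg adjustment (threshold 0.05). The BkF effect had time point as a block, and slopes were fitted within each treatment over all samples. With 1 value per condition, the p-values of the BkF effect measure the spread of the ratio between time points and not between animals. Those of the slopes measure the departure from a straight line, with 1 estimate of the spread shared by both treatments. The steps were checked on simulated data with known changes, and nothing about the power to find small slopes is read from that check. Symbols came from a table that names 18028 identifiers. List symbols were matched as written (82), in capitals (28) or in capitals after dropping the letter of the paralog (35), and 52 found no match. The members and lists were chosen with earlier results of these data known. Named genes were the members, both AHR lists, the 3 highest and 3 lowest genes past the threshold in each other pathway list (mean of 50 or more) and the 5 profiles most like each member. Other genes named, such as CYP7A1, CYP26A1, SLC25A38 and UROD, were chosen after their values were seen. Some genes that the rule or the lists hold are not reported here. Plots and tables used Python 3.11.15 with matplotlib 3.10.9.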

Additional observations from a re-analysis of the deposited data

How the results depend on the processing

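The deposited values are means over replicates, so the replicate error of each member is unknown. No paired analysis was possible because each condition has 1 deposited value and no replicate numbers, and the block in the fit is the time point. Alternatives were a pseudocount of 10 or 0.1, other scalings, filters and priors, no time block, and leaving out each time point. Rescaling to the same total moved the median gene by 0.19 (log2) toward BkF, and the genes changed by BkF were then 10104 (7954 higher, 2150 lower). Of 243 values, 218 kept their direction and side of the threshold, or stayed within the SD or 1.5 times. Counts of genes were judged by their total alone, whatever the direction. So the 218 include electron donors with the same total (6 higher and 0 lower, from 2 and 2). They also include other P450 genes with the same total (9 higher and 11 lower, from 4 and 18). The cause of the values that moved was not tested.

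The mean log2 ratio of ENSDARG00000026039 moved to 11.09 after quantile normalization, and that of cyp1d1 turned to 0.029 with the same total. The slope of ENSDARG00000026039 turned to -0.071 in controls without the 48 hpf samples and to 0.11 in BkF without the 96 hpf samples. That of ENSDARG00000018298 in controls turned to -0.36 without the 48 hpf samples and passed at 1.19 without the 96 hpf samples. The BkF slope of cyp1d1 was -0.0052 after quantile normalization, -0.14 without 48 hpf and -0.0018 without 72 hpf.

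Genes changed by BkF numbered 6903 without 48 hpf, 3539 without 60 hpf and 3800 without 72 hpf, of 7434. They numbered 5386 without the time block and 6075 without the intensity trend. Other P450 genes changed numbered 13, 14 and 13 without 60 hpf, without 72 hpf and without the time block, which ended the calls of cyp27a2, cyp27a3, cyp39a1, cyp3c1, alas2, NQO1, SLC16A9 and ENSDARG00000059035 (POR), and left 3 of 7 in family 27. Electron donor genes numbered 2, 1 and 2 without 48 hpf, without 60 hpf and without the intensity trend, which also ended the calls of NQO1, ahr1b, cyp3c1 and cyp27a3, and heme genes 12 with the same total and 4 without 60 or 72 hpf. Slopes passing numbered 4018 in controls without 96 hpf, and in BkF 649 without 48 hpf, 0 without 60 hpf, 595 without 72 hpf and 322 without the intensity trend, of 1278.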

Other observations

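Just below the 3 induced genes of the set by mean log2 ratio lay 2 identifiers that, like ENSDARG00000018298, have no symbol in the name table. They were singled out after their values were seen. What genes they are is not known here, and neither is in the P450 sums. ENSDARG00000058980 stood at 72183, 61588, 48484 and 45851 normalized counts in BkF larvae at 48, 60, 72 and 96 hpf, against 299.6, 639.8, 665 and 724 in control larvae. Its mean log2 ratio was 6.67 ± 0.87, and its values stood in descending order over time in BkF and in ascending order in controls. ENSDARG00000070925 stood at 408, 361, 301 and 322 in BkF larvae, against 2.23, 2.87, 5.15 and 1.08 in control larvae, a mean log2 ratio of 6.61 ± 0.73.

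A mean log2 ratio of 4 or more was found for 37 genes, the 3 induced genes of the set included. MRPS22 and ENSDARG00000009946, which exceeded cyp1b1 at 96 hpf, were both listed at 0 in the 96 hpf control sample. MRPS22 was also at 0 in the 48 hpf control, against 114 in BkF. ENSDARG00000009946 was at 0 in BkF at 72 hpf, against 420 in the control. At 60 hpf MRPS22 stood at 878 in BkF and 821 in the control, and ENSDARG00000009946 at 818 in BkF and 760.3 in the control.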
